A study of Mus musculus with 6 samples.

Results

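Natural killer (NK) cells of mouse brain tumours were taken from a droplet single-cell RNA-sequencing table of CD45-positive cells, the sorted immune cells of each tissue. A barcode, the droplet's tag for a cell, was taken as an NK cell where the counts of Ncr1, Klre1 and Klrb1c together reached at least 2, the T cell genes Cd3d, Cd3e, Cd3g and Trac together had at most 1 count, the B cell gene Cd79a had at most 1, and 6 microglial genes (Tmem119, Olfml3, Gpr34, Crybb1, Golm1, Slc2a5) and 5 border macrophage genes (Mrc1, Pf4, Cbr2, Cd163, Lyve1) together had at most 2. This left 158 NK cells of 17362 barcodes. Both libraries of Rbpj-deleted tumours (Trp53 ko, Rbpj ko) held 34 and 48 of them, both libraries of control tumours (Trp53 ko, Rbpj wt) held 49 and 8, and both libraries of healthy brain (wild type at both genes) held 3 and 16. The control tumours thus carried the Trp53 deletion too. Tumours had been dissected under the GFP of a Rosa-CAG::GFP Cre reporter, and the labels give neither the Cre driver, nor the animals' age, nor whether the sorted immune cells themselves carried either deletion. The series' design names pooled tissue (9 tumours with Rbpj deleted, 15 without, 9 normal brains), whereas the extraction protocol loads every mouse in its own well. How many animals stand behind a library is therefore unclear, and p-values measure only the spread between libraries.

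NK cells are lymphocytes without a rearranged antigen receptor that kill infected or transformed cells through perforin and granzymes and secrete interferon gamma and chemokines. They read a balance of activating receptors, which signal through adaptors such as Tyrobp, Hcst and Fcer1g, and inhibitory receptors of the Ly49 and NKG2A families, which bind class I molecules on the target. They depend on interleukin 15, and the T-box factors Eomes and Tbx21 set their identity. Rbpj is the DNA-binding partner through which Notch receptors act on their target genes.

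Ncr1 encodes the activating receptor NKp46, Klre1 a C-type lectin-like receptor and Klrb1c the receptor NK1.1. These genes chose the cells, so their levels are a description. Ncr1 had 1579.7 and 2248 CPM (counts scaled to a fixed depth over a library's summed NK cells) in Rbpj-deleted tumours, 1321 and 1697 CPM in control tumours and 1256 and 1654 CPM in healthy brains. Klre1 had 548 and 539 CPM in Rbpj-deleted tumours, 625 and 706 CPM in control tumours and 392 and 681 CPM in healthy brains, and Klrb1c had 208 and 269.6 CPM in Rbpj-deleted tumours, 229 and 218 CPM in control tumours and 157 and 159 CPM in healthy brains. The tumour groups overlapped for Ncr1 and Klrb1c and did not for Klre1. In such sums, fewer cells with a transcript and less RNA per cell cannot be told apart. The 250 bases before the RefSeq start of each of these genes (GRCm38.p6, 5′ to 3′) are shown because these genes define the cells. Capitals mark the RUNX motif TGTGGT, or its complement ACCACA, the binding letters of a factor family used throughout the lymphoid lineage.
Ncr1, chr7:4337465-4337714 (plus strand): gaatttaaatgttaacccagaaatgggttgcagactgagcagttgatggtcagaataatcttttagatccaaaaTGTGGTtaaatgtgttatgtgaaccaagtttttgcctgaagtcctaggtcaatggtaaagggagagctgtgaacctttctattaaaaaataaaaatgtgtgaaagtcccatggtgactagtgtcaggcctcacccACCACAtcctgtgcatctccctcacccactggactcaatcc
Klre1, chr6:129577963-129578212 (plus strand): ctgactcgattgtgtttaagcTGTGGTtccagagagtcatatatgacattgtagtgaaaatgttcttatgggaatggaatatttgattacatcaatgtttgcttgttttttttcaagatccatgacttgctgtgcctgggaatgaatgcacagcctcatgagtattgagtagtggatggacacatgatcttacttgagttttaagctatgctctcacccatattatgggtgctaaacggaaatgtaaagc
Klrb1c, chr6:128788642-128788891 (minus strand): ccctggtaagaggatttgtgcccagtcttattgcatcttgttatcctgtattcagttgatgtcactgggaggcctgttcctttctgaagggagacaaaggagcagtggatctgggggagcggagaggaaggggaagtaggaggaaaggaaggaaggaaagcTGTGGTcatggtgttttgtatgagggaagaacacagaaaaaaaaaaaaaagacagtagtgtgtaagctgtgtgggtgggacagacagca
The motif occurred 2 times before Ncr1, 1 time before Klre1 and 1 time before Klrb1c, and 14.05% of the 32851 promoters in the table hold it on either strand in the same 250 bases. RefSeq lists another start for Klre1, whose 250 bases hold none, and another for Ncr1, which holds the same 2. The T-box letters GGTGTGA, or TCACACC, were in none of the 3 windows and in 3.33% of all promoters. These matches describe letters and no binding was measured here.

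Markers that the rule did not use set the cells apart from microglia, and some of them from T cells. After each cell was thinned to 1000 counts, Nkg7, a granule membrane protein, was found in 87.34% of the 158 NK cells and in 0.58% of 1200 microglial barcodes (200 drawn from each library, at least 5 counts of the microglial genes). These microglial barcodes also had no count of the NK or T cell genes of the rule. That choice can lower their share of NK markers in advance. Gzma was found in 79.75% of NK cells and 0.33% of microglia, Klrd1 in 59.49% and 1.17%, Prf1 in 50% and 0.08%, Klrk1 in 40.51% and 1.17%, and Eomes in 17.72% and 0.0%. Without thinning these genes were found in 97.47%, 84.81%, 91.14%, 83.54%, 87.97% and 51.27% of NK cells, and in 3.42%, 1.5%, 7.83%, 0.67%, 11.42% and 0.17% of microglia. The median depth was 4508 counts in NK cells and 7669 in microglia. T cells of the tumours shared part of these markers. Nkg7 had 1878 and 2625 CPM in T cells of Rbpj-deleted tumours and 2160.0 and 3333 CPM in those of control tumours, against 1881 and 3883 CPM in NK cells of Rbpj-deleted tumours and 2596 and 3108 CPM in those of control tumours. Klrd1 had 248 and 230.1 CPM in T cells of Rbpj-deleted and 285 and 883 CPM in those of control tumours, and Eomes 11.96 and 14.5 CPM in those of Rbpj-deleted and 20.6 and 13.96 CPM in those of control tumours. In thinned cells, all 6 were far above their share in microglia, where free RNA can leave counts. The adaptor genes Tyrobp and Fcer1g, which microglia also express, did not tell the cells apart (87.34% and 92.41% of NK cells, 89.25% and 87.33% of microglia, thinned). Il7r, which marks other innate lymphoid cells in the mouse, was found in 3.8% of thinned NK cells, below the 11.0% of microglia. Control replicate 1 held most of it, with 58 counts in 11 of its 49 cells, while the other libraries had 4 counts or fewer. The innate lymphoid and residence genes Cxcr6 and Cd200r1 gave too little to place the cells. Cxcr6 had 0 counts in NK cells and only 7 in the whole table. Cd200r1 had 3 and 2 counts in Rbpj-deleted tumours, 5 and 1 in control tumours and 0 and 0 in healthy brains. Other markers of that kind were present. Itga1 was found in 6.96% of thinned NK cells and 0.0% of thinned microglia, and without thinning in 24.68% and 1.0%. Tmem176a and Tmem176b had 90 and 108 counts in NK cells, of 79169 and 129725 in the whole table. Whether some of the cells are other innate lymphoid cells was not tested.

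Values close to the limits show how sharp the choice was. The 11 cells with exactly 2 counts of the NK genes had a median of 12 counts of those 6 further markers, and 2 of them had none. The 16 barcodes with 1 count that met the other limits had a median of 1.0 such count, and 7 of them had none. Their median was 16.0 counts of macrophage genes (C1qa, C1qb, C1qc, Csf1r, Apoe, Lyz2), against 4.0 for the 11 cells inside. On the T cell side, the 35 NK cells with 1 count had a median of 65.0 further marker counts, and the 15 barcodes with 2 counts, left out, had 58.0. In all, 989 barcodes had at least 2 NK gene counts and 831 of them (84.02%) failed a limit. The T cell limit failed 617 of them, the microglial and border macrophage limit 623 and both together 409. The share that failed was 86.92% and 79.13% in Rbpj-deleted tumours, 75.25% and 95.51% in control tumours, and 96.67% and 51.52% in healthy brains.

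NK cells of the 6 libraries summed to 182319 and 174346 counts in Rbpj-deleted tumours, 280072 and 59530 in control tumours, and 25483 and 113092 in healthy brains. Control replicate 2 rested on 8 cells and healthy replicate 1 on 3. The median depth of an NK cell was 3684 and 2875 counts in Rbpj-deleted tumours, 4905 and 6837 in control tumours and 9390 and 5115 in healthy brains. Numbers of cells with a count, where not thinned, are thus not matched for depth between libraries. Before the counts were summed, 256 barcodes were dropped as likely copies of a sequence more than 10 times deeper elsewhere, 0 of them NK cells. The libraries shared 119 barcode sequences, and 0 NK cells were among them. RNA of other cell types was unevenly present. More than 5 counts of the macrophage genes were carried by 9 and 7 NK cells in Rbpj-deleted tumours, 5 and 0 in control tumours and 0 and 4 in healthy brains. The 13 macrophage list genes summed to 8562 and 3717 CPM in Rbpj-deleted tumours, against 764 and 353 CPM in control tumours and 510.1 and 831 CPM in healthy brains. The 10 endothelial genes summed to 1651 and 1921 CPM in Rbpj-deleted tumours, 129 and 252 CPM in control tumours and 29314 and 6791 CPM in healthy brains. The 13 dendritic cell genes, which include class II, summed to 12779.8 CPM in replicate 1 and 442 CPM in replicate 2 of Rbpj-deleted tumours, 996 and 202 CPM in control tumours and 235 and 79.6 CPM in healthy brains. In Rbpj-deleted replicate 1, the highest class II counts of single cells were 879, 823, 387 and 112. What is called class II counts here includes Fscn1 and Ccr7, which are not class II genes, beside H2-Aa, H2-Ab1, H2-Eb1 and Cd74. Of NK cells with more than 5 endothelial counts there were 1 and 1 in Rbpj-deleted tumours, 0 and 0 in control tumours and 2 and 1 in healthy brains. These counts were of Cldn5, Flt1, Igfbp7, Esam, Adgrl4 and Sparc. Without cells carrying more than 5 counts of macrophage, class II or endothelial genes, 21 and 39 NK cells were left in Rbpj-deleted tumours, 43 and 8 in control tumours, and 1 and 12 in healthy brains. The part of such RNA in each result was not tested, except where a value without these cells is given.

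The NK share of the sorted immune cells overlapped between both kinds of tumour, and NK cells were in these libraries a larger part of the NK and T cells together in Rbpj-deleted tumours, a difference this design cannot put past the test. They were 1.13% (95% exact binomial interval 0.781 to 1.57) and 2.06% (1.52 to 2.72) of kept barcodes in Rbpj-deleted tumours, 4.01% (2.98 to 5.26) and 1.06% (0.458 to 2.07) in control tumours, and 0.0418% (0.0086 to 0.122) and 0.620% (0.355 to 1.01) in healthy brains. The tumour groups overlapped, and their means differed by -0.939 percentage points (1.59 ± 0.661 in Rbpj-deleted and 2.53 ± 2.08 in control tumours, SD, n = 2 each; exact two-sided permutation p = 1.0). Without control replicate 1 the difference was 0.535, of the opposite sign. Of NK plus T cells, NK cells were 38.2% (28.1 to 49.1) and 34.0% (26.3 to 42.5) in Rbpj-deleted tumours, 20.5% (15.6 to 26.2) and 13.3% (5.94 to 24.6) in control tumours, and 9.38% (1.98 to 25.0) and 50% (31.9 to 68.1) in healthy brains. Both Rbpj-deleted libraries lay above both control libraries, by 19.2 percentage points on average (36.1 ± 2.94 in Rbpj-deleted and 16.9 ± 5.07 in control tumours, SD). The exact two-sided permutation p was 0.33, the smallest that 2 libraries against 2 allow, so the design cannot pass a threshold of 0.05. T cells were chosen by the mirror of the NK rule and numbered 55 and 93 in Rbpj-deleted tumours, 190 and 52 in control tumours and 29 and 16 in healthy brains. Where the microglial and border macrophage limit was lifted for NK and T cells alike, the difference was 5.96 points and the tumour groups overlapped (15.1% and 18.9% in Rbpj-deleted, 15.6% and 6.47% in control tumours, exact permutation p = 0.667). Intervals cover counting error only, and shares of sorted cells say nothing of numbers per brain.

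**Figure D1:**
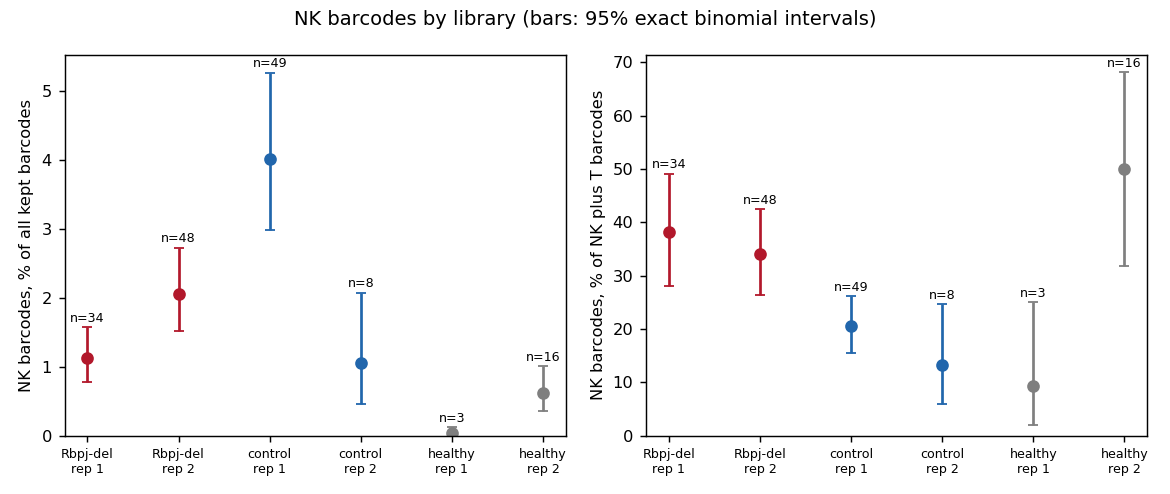
NK barcodes of each library as a percentage of all kept barcodes (left) and of NK plus T barcodes (right), with the number of NK cells above each point and 95% exact binomial intervals as bars. In the left panel the tumour groups overlap (1.13% and 2.06% in Rbpj-deleted, 4.01% and 1.06% in control tumours), while in the right panel both Rbpj-deleted libraries (38.2% and 34.0%) lie above both control libraries (20.5% and 13.3%).

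Within the tumours, NK cells of Rbpj-deleted and control tumours differed in few genes past the test. Counts summed per library over NK cells were compared for 3136 genes that passed the filter on low counts, and 4 were called at adjusted p under 0.05 (0.128% of genes tested): Tpm3-rs7 and Sparc were higher in Rbpj-deleted tumours, and Tpm3 and Rpl29 lower. At an unadjusted p under 0.05 there were 288 genes (9.18%), 4.97% higher and 4.21% lower, and 1216 genes (38.8%) had libraries that did not overlap between the tumour groups. DESeq2 called 12 genes, which included these 4. Of the 411 genes in lists of NK biology, response programmes and signalling, 226 could be tested. None was called by edgeR in the main fit, and 35 (15.5%) had an unadjusted p under 0.05 (21 higher and 14 lower). DESeq2 called 2 list genes (H2-T22 and Ifitm3). With no filter on low counts edgeR called 16 list genes, among them Ccl3, Ccl5, Gzmb, Cxcr4, Ifngr1 and Rgs1. Below, a call is one of the main fit unless another is named. The median standard error of a log2 fold change was 0.44, and a p that misses the threshold does not show that levels were the same. Each of the 4 genes lost its call when either control library was left out, where 0 genes were called (303 and 219 at an unadjusted p under 0.05), and 61 and 119 were called without Rbpj-deleted replicate 1 or 2.

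Of the 4 called genes, Tpm3, Tpm3-rs7 and Rpl29 split the libraries in other cells too. Tpm3 (chr3:90072649-90100902, plus strand, mm10), which encodes a tropomyosin, had 71.3 and 68.8 CPM in Rbpj-deleted tumours and 511 and 571 CPM in control tumours (log2 fold change -2.94 ± 0.33, adjusted p = 0.015). Tpm3-rs7 (chr14:113314608-113316754, plus strand), named as a gene related to it in sequence, had 357 and 430.2 CPM in Rbpj-deleted and 21.4 and 16.8 CPM in control tumours (log2 fold change 4.20 ± 0.42, adjusted p = 0.0122). Where a gene was high its relative was low, in each of the 4 tumour libraries. The same held for all barcodes that were neither NK nor T cells: Tpm3-rs7 had 339 and 386 CPM there in Rbpj-deleted tumours, 27.7 and 15.2 CPM in control tumours, and 18.3 and 380.3 CPM in healthy brains. Tpm3 had 67.0 and 70.8 CPM in those barcodes of Rbpj-deleted tumours, 532 and 489 CPM in those of control tumours and 432 and 92.3 CPM in those of healthy brains. Of the wild-type libraries, the first thus resembled the control tumours for both genes and the second resembled the Rbpj-deleted tumours. Rpl29 (chr9:106429454-106431568, plus strand), a ribosomal protein gene outside the naming rule, had 5.48 and 11.5 CPM in Rbpj-deleted and 364 and 369.6 CPM in control tumours (log2 fold change -5.35 ± 0.48, adjusted p = 0.0122) and 78.5 and 70.7 CPM in healthy brains. In the other barcodes it had 16.1 and 15.7 CPM in Rbpj-deleted tumours and 231 and 180.0 CPM in control tumours. Counting can move reads between genes of near-identical sequence, which makes counts of single such genes uncertain. Whether it did so for these genes was not tested. The group and this split of the libraries cannot be told apart among the tumours.

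Sparc (chr11:55394500-55423183, minus strand) encodes a secreted matrix glycoprotein made by endothelial cells and microglia. It had 367 and 694 CPM in NK cells of Rbpj-deleted tumours, 10.7 and 16.8 CPM in those of control tumours and 9457 and 1715 CPM in those of healthy brains (log2 fold change 5.37 ± 0.56, adjusted p = 0.0122). Its counts sat in few cells: in Rbpj-deleted tumours 1 cell of each library held 86.57% and 90.91% of them, and 8 cells in each had any count. Once cells with macrophage, class II or endothelial RNA were left out, Sparc fell under the filter and could not be tested. Sparc is itself among the endothelial genes that chose these cells, so this outcome is no separate check. Adgrl4, an endothelial adhesion receptor, was at 126 and 138 CPM in Rbpj-deleted tumours and at 0 in both control libraries, at least 14.9-fold higher against a floor of 3 counts over the control group (adjusted p = 0.0705). Of its counts, 1 cell of each Rbpj-deleted library held 91.3% and 95.83%, and without cells carrying RNA of other types it could not be tested. Adgrl4 too is among the genes that chose the cells left out. In all, 7 of the 8 endothelial genes tested had an unadjusted edgeR p under 0.05 and a higher value in Rbpj-deleted tumours. Of all genes tested, 4.97% did so. Of the 7, Sparc alone was called. The median log2 fold change of the 8 was 6.10, or 3.71 with the genes at 0 put at their bounds. These genes are not separate observations, since they share cells. In Rbpj-deleted replicates 1 and 2, 1 NK cell each carried 200 and 264 counts of the endothelial genes that chose the cells left out. Of the macrophage genes, 5 of 6 tested were higher at that unadjusted p, with a median of 2.10 and none called.

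**Figure D2:**
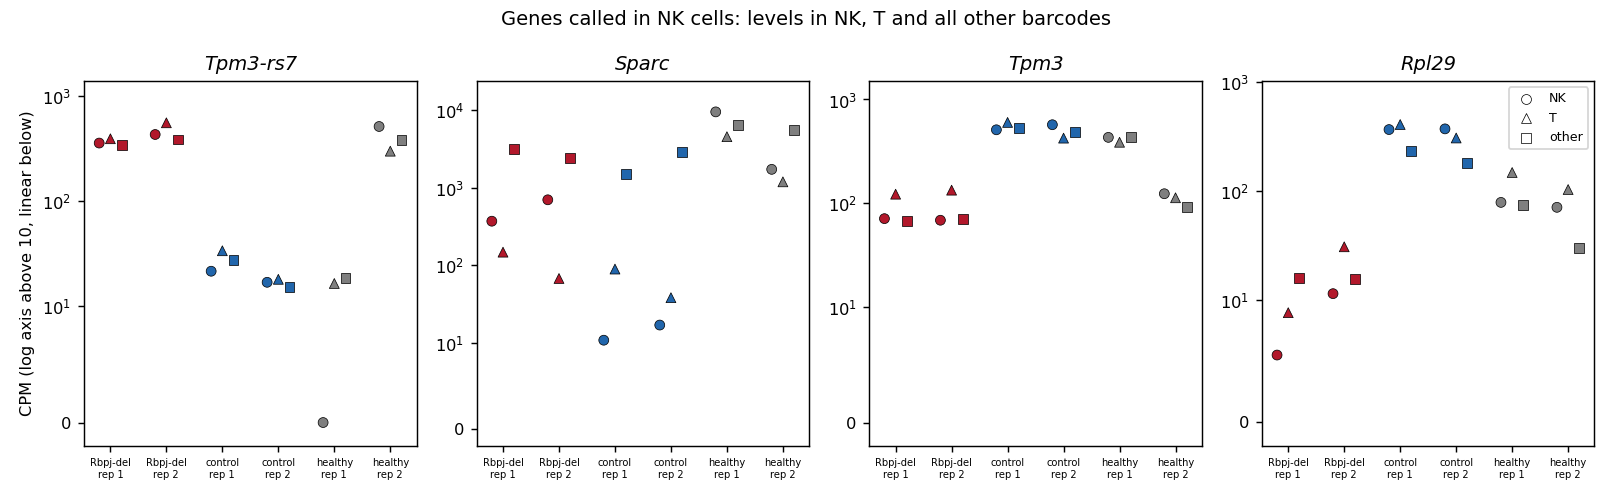
CPM of the 4 called genes (log axis above 10, linear below) in NK cells, T cells and all other kept barcodes of each library, Rbpj-deleted (red), control (blue) and healthy (grey). Tpm3-rs7, Tpm3 and Rpl29 part the tumour libraries in NK, T and other barcodes alike, and healthy replicate 2 stands near the Rbpj-deleted libraries for Tpm3-rs7 (380.3 CPM in other barcodes) while healthy replicate 1 does not (18.3 CPM).

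Receptors and their adaptors did not differ past the adjusted test between NK cells of both tumours. Klrd1, the CD94 partner of the NKG2 receptors, had 614 and 1078 CPM in Rbpj-deleted tumours and 836 and 1529 CPM in control tumours (log2 fold change -0.50 ± 0.39, adjusted p = 0.781). Klrk1, the activating receptor NKG2D, had 543 and 654 CPM in Rbpj-deleted and 532 and 756 CPM in control tumours (log2 fold change -0.11 ± 0.32, adjusted p = 0.966). In each case the libraries of the groups overlapped. Klrc1, the inhibitory NKG2A, had 241 and 419 CPM in Rbpj-deleted and 261 and 504 CPM in control tumours and overlapped likewise. Klrb1a, a relative of NK1.1, had 65.8 and 68.8 CPM in Rbpj-deleted tumours and 136 and 151 CPM in control tumours, with no overlap (log2 fold change -1.07 ± 0.39, adjusted p = 0.427). Of 10 receptor genes of the NKG2 and NKR-P1 families and other receptors that could be tested, none was called, and the median log2 fold change was -0.13, beside 0.02 over all genes tested. Tyrobp had 2457 and 2839 CPM in Rbpj-deleted and 2442 and 2654 CPM in control tumours and overlapped (log2 fold change 0.03 ± 0.21, adjusted p = 0.997). Hcst, the adaptor of NKG2D, had 532 and 763 CPM in Rbpj-deleted and 1182 and 1058 CPM in control tumours, lower in both Rbpj-deleted libraries but not called (log2 fold change -0.82 ± 0.29, adjusted p = 0.421). Ptpn6, the phosphatase SHP-1 that carries the signal of inhibitory receptors, had 296 and 258 CPM in Rbpj-deleted and 143 and 118 CPM in control tumours (log2 fold change 1.02 ± 0.33, adjusted p = 0.357). Of 13 adaptor and signalling genes tested, none was called. Among 13 core NK genes tested outside the rule, 12 log2 fold changes were negative, with a median of -0.29. None of these was called or had an unadjusted edgeR p under 0.05. Over all 3136 genes tested, 1532 were negative and 1604 positive.

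Ly49 receptors, which are encoded by the Klra genes and switched on in part of the NK cells each, were spread over the cells. Of the 158 NK cells, 62 had no count of the 11 Klra genes listed, 56 had counts of 1 of them and 40 of 2 or more, with a maximum of 5. Klra3 (Ly49C) was found in 74 cells, Klra9 in 28, Klra7 in 16, Klra4 in 11, Klra10 in 10, Klra1 in 6, Klra2 in 6 and Klra5 in 5, and Klra6, Klra8 and Klra17 in 0. Klra3 had 455 and 476 CPM in Rbpj-deleted tumours, 264 and 521 CPM in control tumours and 392 and 469 CPM in healthy brains, and the tumour groups overlapped (log2 fold change 0.30 ± 0.39, adjusted p = 0.908). Klra10 was counted in 4 and 4 cells of Rbpj-deleted tumours, in 0 and 0 of control tumours, and in 0 and 2 of healthy brains. That is the split of the libraries seen for Tpm3-rs7, on 4 and 5 counts in Rbpj-deleted tumours and 3 in healthy replicate 2. The Klra genes are a family of near copies whose number differs between mouse strains, so counts of single members are uncertain. The part of this in the Klra10 counts was not tested.

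Genes of the killing machinery did not differ past the test. Gzma, granzyme A, had 5260.0 and 9923 CPM in Rbpj-deleted tumours, 7873 and 7862 CPM in control tumours and 3414 and 14068 CPM in healthy brains. The Rbpj-deleted libraries lay on either side of the control ones (log2 fold change -0.09 ± 0.26, adjusted p = 0.966). Prf1, perforin, had 373 and 1159 CPM in Rbpj-deleted and 899.8 and 773 CPM in control tumours (log2 fold change -0.18 ± 0.47, adjusted p = 0.964). Gzmb, granzyme B, had 313 and 579 CPM in Rbpj-deleted and 421 and 1865 CPM in control tumours (log2 fold change -1.34 ± 0.64, adjusted p = 0.588), and 1 of the 8 cells of control replicate 2 held 81.08% of that library's Gzmb counts. Serpinb9, an inhibitor of granzyme B, had 346 and 333 CPM in Rbpj-deleted and 721 and 336 CPM in control tumours, and Ctsc, the protease that activates granzymes, had 543 and 258 CPM in Rbpj-deleted and 204 and 134 CPM in control tumours (log2 fold change 1.15 ± 0.44, adjusted p = 0.483). Without cells carrying RNA of other types, the log2 fold change of Ctsc was 0.15 ± 0.37. Of 11 granule genes tested, none was called, 1 (Ctsc) had an unadjusted p under 0.05, and the median log2 fold change was -0.02. The death ligand Fasl had 225 and 189 CPM in Rbpj-deleted and 254 and 118 CPM in control tumours and overlapped between the groups.

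Among secreted factors the chemokines Ccl5 and Ccl3 had the lowest p, and neither passed the adjusted test. Ccl5, which attracts T cells and dendritic cells, had 6373 and 8672 CPM in Rbpj-deleted tumours and 13218 and 14766 CPM in control tumours, with no overlap (log2 fold change -0.92 ± 0.17, adjusted p = 0.115). In healthy brains it had 8594 and 19595 CPM. Without Rbpj-deleted replicate 1 or 2 it was -0.74 and -1.14, both past the adjusted test, and without control replicate 1 or 2 it was -1.05 and -0.85, neither past it (adjusted p = 0.566 and 0.756). In each of these fits a group had 1 library, and the value without cells carrying RNA of other types was -1.20 ± 0.26 (edgeR adjusted p = 0.157). Ccl3, an inflammatory chemokine, had 609 and 964 CPM in Rbpj-deleted and 214 and 420.0 CPM in control tumours, again with no overlap but in the other direction (log2 fold change 1.36 ± 0.42, adjusted p = 0.337). Microglia are known to make Ccl3, and without cells carrying macrophage, class II or endothelial RNA its log2 fold change was 1.37 ± 0.60 (adjusted p = 0.77). Ccl3 was found in 17 and 23 NK cells of Rbpj-deleted tumours (50% and 47.92%) and in 15 and 3 of control tumours (30.61% and 37.5%). Ccl4 had 1075 and 2283 CPM in Rbpj-deleted and 1064 and 974 CPM in control tumours (log2 fold change 0.68 ± 0.35, adjusted p = 0.634). After thinning, Ccl4 was found in 49.37% of NK cells and in 56.92% of microglia, which express it themselves, while Ccl5 was found in 81.65% and 9.83%. In Ccl5, 1 cell held 43.37% of the counts of Rbpj-deleted replicate 1, and 1 cell 57.57% of those of control replicate 2. Ifng, interferon gamma, had 329 and 591 CPM in Rbpj-deleted and 129 and 420.0 CPM in control tumours and overlapped (log2 fold change 0.90 ± 0.56, adjusted p = 0.727). Xcl1, the ligand of the receptor on type 1 dendritic cells, had 340.1 and 1227 CPM in Rbpj-deleted and 649.8 and 504 CPM in control tumours and also overlapped. Of 7 secreted factors tested, none was called, and Ccl3 (higher) and Ccl5 (lower) had an unadjusted edgeR p under 0.05. At that p, 4.97% of all genes were higher and 4.21% lower. Of the 7 log2 fold changes 6 were positive (1604 of all 3136 genes tested were), with a median of 0.68.

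**Figure D3:**
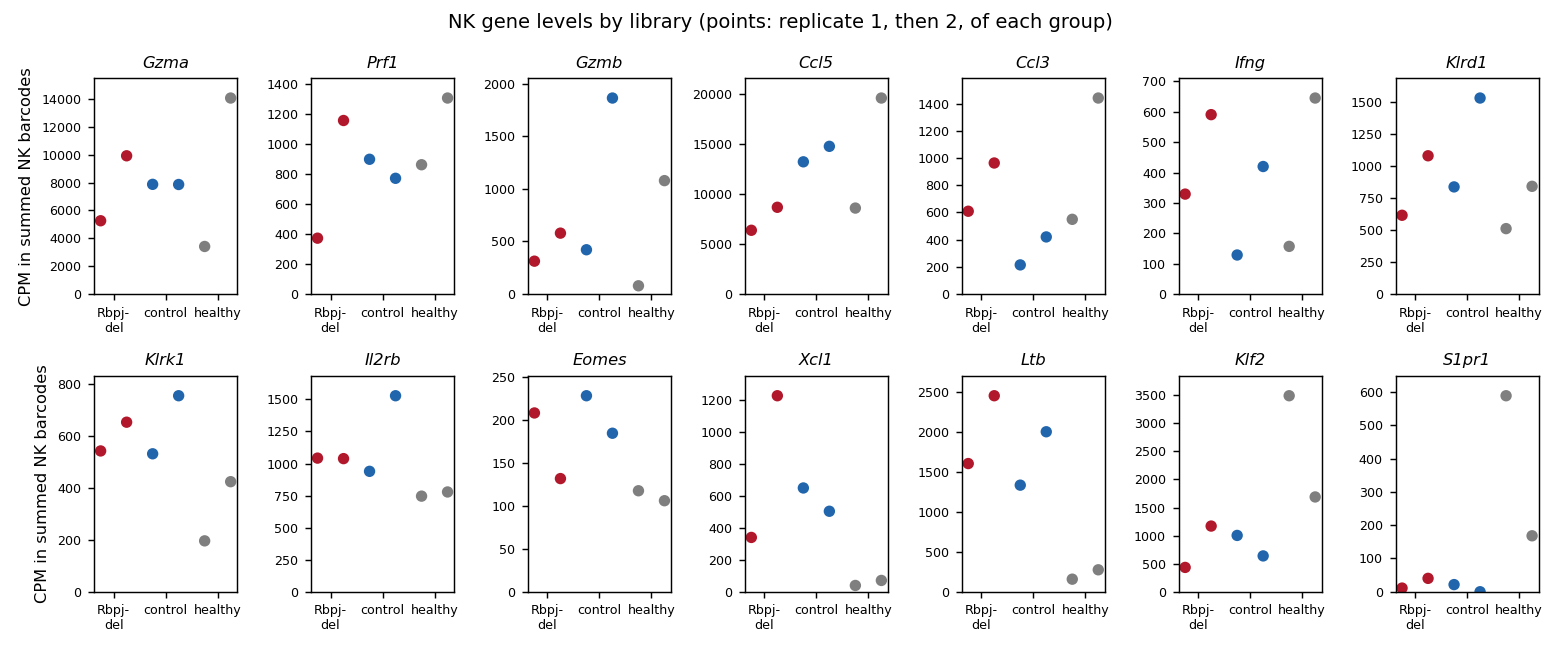
CPM in summed NK cells of 14 NK genes, replicate 1 and then replicate 2 of Rbpj-deleted tumours (red), control tumours (blue) and healthy brains (grey), each axis starting at 0. Ccl5 is lower in both Rbpj-deleted libraries (6373 and 8672) than in both control libraries (13218 and 14766), and Xcl1 and Ltb are low while Klf2 and S1pr1 are high in both healthy libraries. The healthy libraries also held the most endothelial RNA, whose part in these levels was not tested.

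Cytokine receptors and the factors that set NK identity did not pass the adjusted test either. Il2rb, the shared receptor chain for interleukins 2 and 15, had 1042 and 1038 CPM in Rbpj-deleted tumours and 939 and 1529 CPM in control tumours (log2 fold change -0.25 ± 0.31, adjusted p = 0.905). Ifngr1 had 795 and 711 CPM in Rbpj-deleted and 2228 and 857 CPM in control tumours (log2 fold change -1.07 ± 0.42, adjusted p = 0.487). Stat4, which carries the interleukin 12 signal, had 98.7 and 74.6 CPM in Rbpj-deleted and 204 and 202 CPM in control tumours, with no overlap (log2 fold change -1.23 ± 0.37, adjusted p = 0.337). Eomes had 208 and 132 CPM in Rbpj-deleted and 229 and 185 CPM in control tumours and Tbx21 had 115 and 247 CPM in Rbpj-deleted and 150.0 and 218 CPM in control tumours, both overlapping. Irf8, a factor needed for NK responses to virus in the mouse, had 54.9 and 57.4 CPM in Rbpj-deleted and 175 and 101 CPM in control tumours (log2 fold change -1.44 ± 0.43, adjusted p = 0.337). Ets1, which NK development needs, had 247 and 384 CPM in Rbpj-deleted and 557 and 470.4 CPM in control tumours. Of 18 transcription factors tested none was called, and 15 log2 fold changes were negative (1532 of all 3136 genes tested were). Of the 18, 6 genes did not overlap between the groups, all lower in Rbpj-deleted tumours (566 of all genes, 18%, did so). The median log2 fold change was -0.33. Without cells carrying RNA of other types Irf8 was at -1.16 ± 0.48 and Stat4 at -0.98 ± 0.47, neither called.

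Of genes of NK maturation and of tissue residence none was called. Of the immature set, Thy1 had 197 and 315 CPM in Rbpj-deleted and 121 and 84.0 CPM in control tumours (log2 fold change 1.19 ± 0.38, adjusted p = 0.357), while Emb had 203 and 281 CPM in Rbpj-deleted and 714 and 134 CPM in control tumours and overlapped. Of the mature set, S1pr5, the receptor that lets NK cells leave tissue, was counted in 0 and 10 cells of Rbpj-deleted tumours, 6 and 0 of control tumours and 0 and 9 of healthy brains. Serpinb9b, of the same set, was counted in 3 and 5 cells of Rbpj-deleted tumours, 14 and 1 of control tumours and 0 and 4 of healthy brains. In the residence set, Rgs1, a brake on chemokine receptors that is high in resident lymphocytes, had 845 and 964 CPM in Rbpj-deleted tumours and 414 and 302 CPM in control tumours (log2 fold change 1.28 ± 0.31, adjusted p = 0.205). Without cells carrying RNA of other types its log2 fold change was 1.63 ± 0.36 (adjusted p = 0.163). Itga1 (CD49a) had 154 and 74.6 CPM in Rbpj-deleted and 21.4 and 202 CPM in control tumours and overlapped. Of the 12 residence genes tested, Rgs1, Inpp4b and Podnl1 had an unadjusted edgeR p under 0.05, all higher in Rbpj-deleted tumours (4.97% of all genes were). Without overlap between the groups, 4 of the 12 were higher and 2 lower (20.7% and 18% of all genes). The median log2 fold change was 0.71. Inpp4b and Podnl1 fell under the filter without cells carrying RNA of other types. Cd160, an activating receptor of NK and intraepithelial lymphocytes, had 115 and 361 CPM in Rbpj-deleted and 75.0 and 84.0 CPM in control tumours (log2 fold change 1.58 ± 0.57, adjusted p = 0.427), and the costimulator Cd28 had 71.3 and 51.6 CPM in Rbpj-deleted and 189 and 118 CPM in control tumours (log2 fold change -1.43 ± 0.42, adjusted p = 0.337). The chemokine receptors Cxcr3 (76.8 and 172 CPM in Rbpj-deleted and 129 and 33.6 CPM in control tumours) and Cxcr4 (197 and 74.6 CPM in Rbpj-deleted and 557 and 118 CPM in control tumours) were not called, and 0 of 12 trafficking genes had an unadjusted p under 0.05.

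Of interferon-response and class I genes none was called, while most had positive log2 fold changes (1604 of all 3136 genes tested did). Of 19 type I interferon-response genes tested, 16 had a positive log2 fold change (median 0.41) and none was called. Among them Ifi27l2a, Ifitm3 and Slfn5 had an unadjusted edgeR p under 0.05, all higher (4.97% of all genes were). The 39 genes of that list summed to 5841 and 2661 CPM in Rbpj-deleted tumours, 2289 and 2503 CPM in control tumours and 2865 and 1105 CPM in healthy brains. Rbpj-deleted replicate 1 was thus alone high among the tumour libraries, and it was also the library with most macrophage and class II RNA, whose part in the list's sum was not tested. Ifitm3, which blocks virus entry and is also high in endothelial cells, had 1179 and 436 CPM in Rbpj-deleted and 21.4 and 0 CPM in control tumours (log2 fold change 5.53 ± 0.77, adjusted p = 0.0596). DESeq2 called it, and without cells carrying RNA of other types it fell under the filter. Ifi27l2a had 581 and 155 CPM in Rbpj-deleted and 49.99 and 134 CPM in control tumours, a log2 fold change of 2.33 ± 0.75 that was 0.76 ± 0.95 without those cells. Isg15 had 324 and 115 CPM in Rbpj-deleted and 189 and 118 CPM in control tumours and overlapped. Of 8 genes of the interferon gamma response tested, none was called, and Gbp2 had 329 and 74.6 CPM in Rbpj-deleted and 57.1 and 50.4 CPM in control tumours (log2 fold change 1.86 ± 0.73, adjusted p = 0.487). Of 18 class I presentation genes tested, 15 were positive with a median of 0.26, and 7 were higher in Rbpj-deleted tumours without overlap (20.7% of all genes tested were). The classical class I genes H2-K1 (4399 and 4559.9 CPM in Rbpj-deleted and 3835 and 4704 CPM in control tumours) and H2-D1 (7284 and 6544 CPM in Rbpj-deleted and 7337 and 8416 CPM in control tumours) had log2 fold changes of 0.05 and -0.21. H2-T22, a non-classical class I gene, had 285 and 143 CPM in Rbpj-deleted tumours, 0 in both control libraries and 0 and 88.4 CPM in healthy brains, at least 24.3-fold higher against a floor of 3 counts over the control group (adjusted p = 0.0772). It split T cells in the same way (290.1 and 266 CPM in Rbpj-deleted tumours, 5.27 and 11.96 CPM in control tumours, 5.46 and 124 CPM in healthy brains). H2-T23, the mouse Qa-1 that displays peptides to NKG2A, had 505 and 419 CPM in Rbpj-deleted tumours, 121 and 84.0 CPM in control tumours and 0 and 159 CPM in healthy brains (log2 fold change 2.05 ± 0.34, adjusted p = 0.11). In T cells H2-T23 had 431 and 386 CPM in Rbpj-deleted tumours and 161 and 195 CPM in control tumours, so the tumour libraries parted there too. Both genes have close relatives in the same cluster.

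Cell cycle, stress and metabolic genes did not part the tumours past the test. Cells with at least 3 counts of the cycle genes numbered 15 of 158 (9.49%, exact interval 5.41 to 15.2), with 3 and 3 in Rbpj-deleted tumours, 7 and 0 in control tumours and 0 and 2 in healthy brains. Top2a had 197 and 161 CPM in Rbpj-deleted tumours, 339 and 16.8 CPM in control tumours and 0 and 681 CPM in healthy brains. Of 15 cycle genes tested none was called (median -0.02). Of 26 immediate early and stress genes tested none was called (median 0.00). Nr4a2, an early gene of receptor signalling, had 340.1 and 138 CPM in Rbpj-deleted and 825 and 504 CPM in control tumours, with no overlap (log2 fold change -1.51 ± 0.47, adjusted p = 0.357). Zfp36, which shortens the life of cytokine transcripts, had 878 and 287 CPM in Rbpj-deleted and 150.0 and 134 CPM in control tumours, a log2 fold change of 2.01 ± 0.56 that was 0.91 ± 0.41 without cells carrying RNA of other types. Of 10 glycolysis and hypoxia genes tested, Vegfa had 43.9 and 0 CPM in Rbpj-deleted and 154 and 134 CPM in control tumours (log2 fold change -2.69 ± 0.81, adjusted p = 0.337), and Ldha overlapped at 357 and 453 CPM in Rbpj-deleted and 428 and 470.4 CPM in control tumours.

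Notch pathway genes were measured at low levels. Rbpj had 60.3 and 51.6 CPM in NK cells of Rbpj-deleted tumours, 28.6 and 67.2 CPM in those of control tumours and 0 and 35.4 CPM in those of healthy brains, with overlapping libraries (log2 fold change 0.54 ± 0.64, adjusted p = 0.893). A 3′ count outside a deleted part does not check a deletion. Notch2 had 109.7 and 80.3 CPM in Rbpj-deleted and 71.4 and 118 CPM in control tumours, and of 6 Notch genes tested none was called or had an unadjusted p under 0.05. Of 8 TGF-beta response genes tested, Tgfbi, an extracellular matrix protein abundant in macrophages, had 65.8 and 103 CPM in Rbpj-deleted and 3.57 and 0 CPM in control tumours (log2 fold change 4.53 ± 0.91, adjusted p = 0.131) and fell under the filter without cells carrying RNA of other types. Smad7, a feedback inhibitor of the pathway, overlapped at 340.1 and 309.7 CPM in Rbpj-deleted and 257 and 487 CPM in control tumours.

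The remaining genes named by p in the direction of a fall were Khdc1a, Tmsb10 and Atp5l, none of them called. Khdc1a had 11.0 and 28.7 CPM in Rbpj-deleted tumours against 132 and 118 CPM in control tumours and was at 0 in T cells of every tumour library (log2 fold change -2.67 ± 0.55, adjusted p = 0.138). Tmsb10, an actin-binding peptide, had 1799 and 2507 CPM in Rbpj-deleted and 4395 and 4032 CPM in control tumours (log2 fold change -0.998 ± 0.22, adjusted p = 0.171), and in barcodes that were neither NK nor T 367 and 570.2 CPM in Rbpj-deleted and 1585 and 1068 CPM in control tumours. Atp5l, a subunit of ATP synthase, had 65.8 and 34.4 CPM in Rbpj-deleted and 186 and 302 CPM in control tumours (log2 fold change -2.17 ± 0.48, adjusted p = 0.171). In T cells Atp5l had 74.8 and 58.0 CPM in Rbpj-deleted and 182 and 257 CPM in control tumours, and in all other barcodes 38.8 and 43.7 CPM in Rbpj-deleted and 129 and 145 CPM in control tumours. Y-linked Ddx3y had 0 and 34.4 CPM in Rbpj-deleted tumours, 136 and 84.0 CPM in control tumours and 157 and 8.84 CPM in healthy brains. Ddx3y and Eif2s3y, the 2 sex-linked genes tested, were both lower in Rbpj-deleted tumours without overlap (18% of all genes were). Both had an unadjusted edgeR p under 0.05 (4.21% of all genes, lower), with a median log2 fold change of -2.35, and neither was called. Whether the sex of the animals differed between the groups was not tested.

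**Figure D4:**
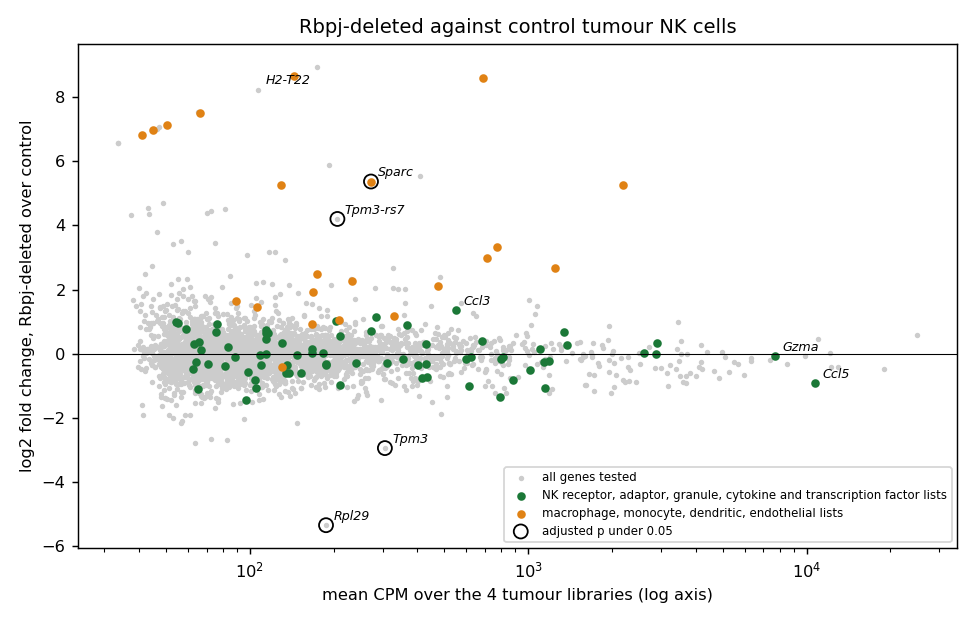
Log2 fold change of Rbpj-deleted over control tumour NK cells against the mean CPM of the 4 tumour libraries (log axis) for 3136 genes, with NK lists in green, lists of macrophages, monocytes, dendritic and endothelial cells in orange, and the 4 called genes circled. The green NK lists hold receptor, adaptor, granule, cytokine and transcription factor genes, among them Gzma (-0.09), Ccl5 (-0.92) and Ccl3 (1.36). H2-T22 is at 8.23, and such values over a control group at 0 counts are fitted and no bound.

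The Rbpj contrast differed between NK cells and T cells of the same libraries for 3 of 5449 genes (0.0551%; 232 genes, 4.26%, at an unadjusted p under 0.05). Gzma was the clearest. NK cells held 5260.0 and 9923 CPM in Rbpj-deleted tumours and 7873 and 7862 CPM in control tumours, while T cells held 520.4 and 1036 CPM in Rbpj-deleted tumours and 52.7 and 47.8 CPM in control tumours. The log2 fold change in NK cells minus that in T cells was -3.91 ± 0.21 (SE, edgeR adjusted p = 3.4e-06). It was between -3.97 and -3.87 with any tumour library left out. With library as a block this fit left few residual degrees of freedom, so its SE and p lean on spread shared across genes. The T cell counts were carried by 12 and 24 cells in Rbpj-deleted tumours (21.82% and 25.81%) and by 18 and 3 in control tumours (9.47% and 5.77%). T cells with no count of the NK genes gave 528 and 1089 CPM in Rbpj-deleted and 55.1 and 48.8 CPM in control tumours. A single T cell held 65.52% of the Gzma counts of Rbpj-deleted replicate 1 and 31.12% of replicate 2.

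The other genes with a different contrast were Il1b, the inflammatory cytokine interleukin 1 beta, and Lyz2, the lysozyme of macrophages and neutrophils. Il1b had 1020.2 and 28.7 CPM in NK cells of Rbpj-deleted tumours and 3.57 and 0 CPM in those of control tumours, while T cells had 502 and 14.5 CPM in Rbpj-deleted and 319 and 361 CPM in control tumours (7.75 ± 0.70, adjusted p = 0.000528). Its 186 counts in Rbpj-deleted replicate 1 were in 8 of 34 NK cells, and 42.47% of them in 1. The T cell counts also sat in few barcodes. In control tumours these were 21 of 190 and 6 of 52, with 25.98% and 61.33% of the counts in 1 barcode. In Rbpj-deleted tumours they were 20 of 55 and 6 of 93, with 38.69% and 25.0% in 1 barcode. Lyz2 in NK cells had 5748 and 2851 CPM in Rbpj-deleted and 168 and 0 CPM in control tumours, and in T cells 3838 and 2979 CPM in Rbpj-deleted and 907 and 33.9 CPM in control tumours (2.75 ± 0.37, adjusted p = 0.0217). It was found in 18 and 20 NK cells of Rbpj-deleted tumours, with 55.44% and 48.29% of the counts in 1 cell of each library. Without barcodes carrying macrophage, class II or endothelial RNA, Gzma was at -4.20 ± 0.24 and Il1b at 6.54 and both remained called, while Lyz2 was at 1.31 (edgeR adjusted p = 1). Lyz2 was also not called without control replicate 1 (6.73, adjusted p = 0.64). Since Lyz2 is itself among the macrophage genes that chose the barcodes left out, its lost call without them is no separate check. Control NK cells had 1 and 0 counts of Il1b, so the size of its fitted value depends on the prior count.

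**Figure D5:**
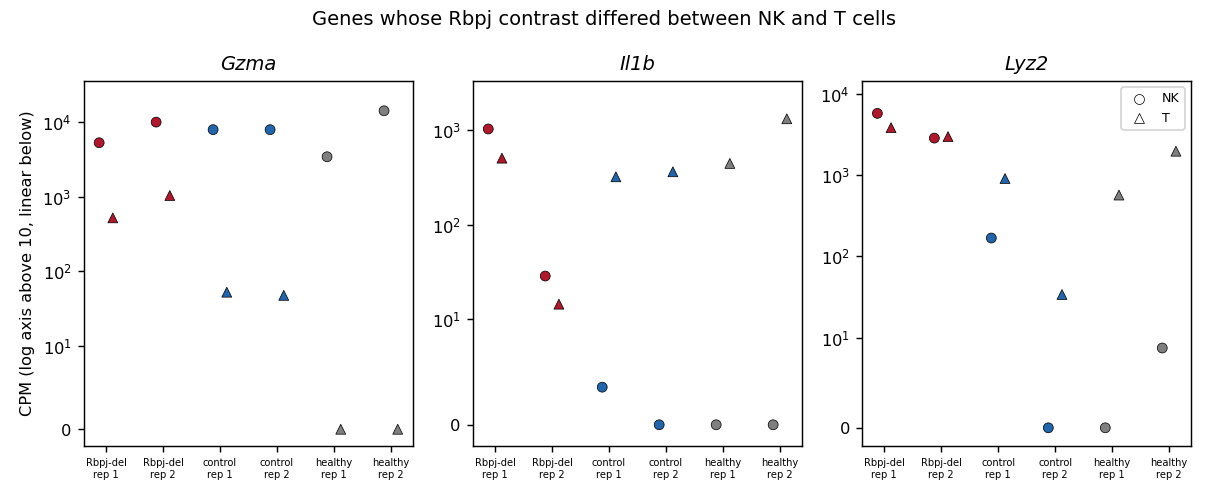
CPM of Gzma, Il1b and Lyz2 (log axis above 10, linear below) in NK cells (circles) and T cells (triangles) of each library. Gzma in NK cells is between 5260.0 and 9923 CPM in the tumour libraries, while in T cells it is 520.4 and 1036 CPM in Rbpj-deleted tumours against 52.7 and 47.8 CPM in control tumours.

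As a description, since the rule chose both kinds of cell, the genes with the highest ratio of NK to T cell CPM over the 4 tumour libraries, among genes of at least 100 CPM in NK cells and outside the rule, were Cited4 (70.3-fold), Klrb1a (44.6), Klrb1f (44.1), Klri2 (35.9), Rn7sk (30.7), Atp1b1 (30.1), Sulf2 (22.6), Gzma (18.7), Klra3 (18.3) and Car2 (17.5). Of these, Klrb1a, Klrb1f, Klri2 and Klra3 encode lectin-like receptors of the NK gene complex. Rn7sk rested on control replicate 2, with 403 CPM there, 0 in control replicate 1 and 11.0 and 11.5 CPM in the Rbpj-deleted libraries. Cited4 had 93.2 and 189 CPM in Rbpj-deleted tumours and 49.99 and 353 CPM in control tumours. Car2, carbonic anhydrase, was steadier, at 203 and 419 CPM in Rbpj-deleted and 461 and 454 CPM in control tumours.

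NK cells of healthy brain are given beside those of the tumours, with no test, since healthy replicate 1 held 3 cells, 2 of them with more than 5 endothelial counts. Ltb, lymphotoxin beta, had 1602 and 2449 CPM in Rbpj-deleted tumours, 1332 and 1999 CPM in control tumours and 157 and 274 CPM in healthy brains. Xcl1 had 340.1 CPM or more in every tumour library and 39.2 and 70.7 CPM in healthy brains. Bcl2, which keeps lymphocytes alive, had 138 CPM or more in every tumour library, and 39.2 and 53.05 CPM in healthy brains. Both healthy libraries were thus below all 4 tumour libraries for these genes. Klf2, a factor of circulating lymphocytes, was above them, with 433 and 1170.1 CPM in Rbpj-deleted tumours, 1003 and 638 CPM in control tumours and 3493 and 1689 CPM in healthy brains. S1pr1, which Klf2 is known to drive in mouse T cells and which is also high in endothelial cells, had 11.0 and 40.1 CPM in Rbpj-deleted tumours, 21.4 and 0 CPM in control tumours and 589 and 168 CPM in healthy brains. Endothelial genes summed to 29314 and 6791 CPM in these healthy NK cells, against 1651 and 1921 CPM in Rbpj-deleted and 129 and 252 CPM in control tumours. The part of such RNA in the levels of Klf2 and S1pr1 was not tested. Nr4a1 had 477 and 212 CPM in Rbpj-deleted tumours, 799.8 and 554 CPM in control tumours and 118 and 97.3 CPM in healthy brains, and Tox had 65.8 and 68.8 CPM in Rbpj-deleted tumours, 49.99 and 67.2 CPM in control tumours and 0 and 0 CPM in healthy brains. Ccl5, Gzma and Prf1 in healthy replicate 2, with 16 cells, lay above every tumour library (19595, 14068 and 1309 CPM).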

How the data were processed

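The study sorted CD45-positive cells from 6 samples and sequenced them by droplet 3′ capture (10x, version 3 chemistry, per the labels). The deposited table holds counts of molecules per gene and barcode, which the authors made with kallisto 0.46.0 and bustools 0.39.3 against mm10, per the submitters' processing notes. The way barcodes were called as cells was not given in the sources used here. Symbols came from GENCODE annotation for 27359 of 27378 gene identifiers. All columns were used (0 left out).

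Barcodes with fewer than 500 genes or over 10% mitochondrial counts (17) and likely index-hopped copies (256) were dropped, leaving 17089. No doublet caller was run. Counts were summed per library over NK or T cells. Tumour groups were compared by edgeR 4.0.16 (quasi-likelihood, TMM, filter on low counts) in R 4.3.3, with Benjamini-Hochberg adjusted p under 0.05 as a call, and every adjusted p in the text is edgeR's unless another tool is named. The NK and T contrasts were compared by an interaction term with library as a block. Shares were compared by exact permutation over libraries. DESeq2 1.42.0, limma 3.58.1, other filters and scalings, and each library left out were alternatives. Scripts were tested on simulated data.

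NK cells, gene lists and tests were chosen with earlier results of these data known. Named were the called genes of each direction with at least 50 CPM, non-overlapping and outside ribosomal, sex-linked, predicted and rule genes, filled to 5 by smallest p, then list genes, the 10 highest NK to T ratios and the genes called in the interaction. Replicate numbers were not used as pairs, since the deviations of same-numbered libraries correlated at 0.064 over genes. Depth was 1018 counts or more per NK cell. Intervals and floors cover counting error only.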

Additional observations from a re-analysis of the deposited data

Results flagged for a closer look

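In Gzma, Il1b and Lyz2 the Rbpj contrast differed between NK and T cells by a test of the difference itself. That test was an edgeR interaction of cell type and group (n = 4 tumour libraries of each cell type, adjusted over 5449 genes). The fit left few residual degrees of freedom, so its p-values lean on spread shared across genes. The log2 fold change in NK cells minus that in T cells was -3.91 for Gzma (adjusted p = 3.4e-06), where T cells of Rbpj-deleted tumours had 520.4 and 1036 CPM and those of control tumours 52.7 and 47.8 CPM. It was 7.75 for Il1b (adjusted p = 0.000528), where NK cells had 1020.2 and 28.7 CPM in Rbpj-deleted tumours against 3.57 and 0 CPM in control tumours. It was 2.75 for Lyz2 (adjusted p = 0.0217), where NK cells had 5748 and 2851 CPM in Rbpj-deleted and 168 and 0 CPM in control tumours. Lyz2 is also among the macrophage genes that chose which barcodes to leave out. Its call was lost without barcodes carrying macrophage, class II or endothelial RNA (1.31, adjusted p = 1) and without control replicate 1 (6.73, adjusted p = 0.64).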

How the results depend on the processing

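The count of genes called between NK cells of the tumours was 4. It was 12 with DESeq2, 129 with no filter on low counts, 15 with all libraries of at least 10 NK cells, 11 with macrophage RNA left out, and 0 to 119 with 1 library left out. With the replicate number as a replicate block it was 80, on 1 residual degree of freedom, and the numbers are shared labels only. It was 3 to 6 under the other 7 alternatives. The count for the difference between NK and T cells was 3, and 9 to 48 with 1 library left out. Where a group was left with 1 library, that library was assumed to vary like the others. The difference in NK share of all kept barcodes was -0.939 points and turned round with no limit on microglial and border macrophage genes (0.1769), an alternative chosen after seeing the data, and with 1 library left out ranged from -2.4131 to 0.5352, of the other sign without control replicate 1. The difference in NK share of NK plus T cells kept its sign in all 13 alternatives run. Leaving out any 1 library could not turn it, since both Rbpj-deleted libraries lay above both control libraries. With no limit on microglial and border macrophage genes the tumour groups overlapped. Of 186 values of single genes under alternatives, 73 were called in both fits, 67 in neither, 36 gained a call, 10 lost one and 0 changed sign. In 11 more cases, 2 of them of Sparc, the gene fell under the filter. The causes were not tested. Depth limits all of this: 8 NK cells stand behind control replicate 2, and 185 of 411 list genes were too low to test.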
